A study of Mus musculus with 12 samples.

Results

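Cytochrome c oxidase (complex IV) is the last enzyme of the mitochondrial respiratory chain, which passes electrons from cytochrome c to oxygen and pumps protons across the inner membrane. Its catalytic core is encoded by mitochondrial DNA, and the nuclear genome supplies a ring of small subunits, several of which exist as a ubiquitous isoform and a tissue-specific one. The tissue-specific isoforms of subunits 6a, 7a and 8 are best known from heart and skeletal muscle, those of 7a and 8 are also abundant in brown fat, that of subunit 4 is known from lung, and that of 6b from testis. The genes described here are the 10 that make up 5 such pairs in the mouse, chosen by their symbols from 55401 genes in the files: *Cox4i1* and *Cox4i2*, *Cox6a1* and *Cox6a2*, *Cox6b1* and *Cox6b2*, *Cox7a2* and *Cox7a1*, and *Cox8a* and *Cox8b*, the ubiquitous isoform named first in each.

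RNA-seq was performed on subcutaneous white adipose tissue (scWAT), which lies below the skin and was taken from female mice aged 16 weeks. There are 12 libraries, with 3 in each of 4 groups, and the labels do not say whether each is a separate animal. Wild-type (Jmjd1a +/+) and Jmjd1a HY/HY mice were kept singly at 30°C for 1 week and then for 1 further week at 30°C, a thermoneutral temperature for mice, or at 8°C. The HY allele was made by CRISPR-Cas9 in C57BL/6J eggs and replaces a histidine of the JMJD1A catalytic domain by tyrosine, which removes its histone demethylase activity in all tissues; per the study, females came from line 1. The comparisons answer which isoforms differ between 8°C and 30°C in each genotype, which differ between the genotypes at each temperature, and whether the response to cold differs between genotypes. Values are from whole tissue, so fewer cells of a type and less RNA per cell cannot be told apart.

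The counts per library added up to between 18305586 and 26352081 at 30°C and between 13592629 and 17955584 at 8°C. *Kdm3a*, the gene of JMJD1A, was called in none of the comparisons, and its level does not check the genotype, since the allele is a base substitution. White adipocyte markers were abundant in every library, with a summed level of 20608 to 46127 counts per 1000000 (CPM, scaled for library size) for 6 genes led by *Fabp4*. Summed markers of macrophages ranged from 74.1 to 178 CPM, of lymph node from 2.02 to 13.0 CPM and of heart muscle from 1.23 to 5.81 CPM. Of these lists, 2 of 6 white adipocyte genes and the single heart gene tested were called lower by cold in wild-type mice. The share of all genes called lower there was 6.93%. In HY/HY mice at 8°C, 2 of 6 white adipocyte and 2 of 4 macrophage genes were called higher than in wild-type mice. The share of all genes called higher there was 1.51%. No lymph node gene was called. The library of wild-type replicate 2 at 30°C stood apart: 12 skeletal muscle genes, led by *Acta1*, summed to 1597 CPM there and to 7.99 to 28.3 CPM in the other 11 libraries. The cold responses of *Cox7a1*, of the subunit 7a and 6b pair ratios and of the muscle genes are given with and without it.

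The 10 genes lie on 6 chromosomes of the mm10 assembly (GRCm38.p6, positions from RefSeq). *Cox7a1* (chr7:30184171-30186030), *Cox8b* (chr7:140898942-140900446), *Cox6a2* (chr7:128205435-128206366), *Cox6b2* (chr7:4751792-4753094) and *Cox6b1* (chr7:30616971-30626114) share chromosome 7. *Cox4i2* is at chr2:152753916-152765039, *Cox4i1* at chr8:120668225-120674209, *Cox6a1* at chr5:115345652-115348958, *Cox7a2* at chr9:79755241-79771422 and *Cox8a* at chr19:7215158-7217616. The coding sequences of the isoforms of a pair were 72.2% to 76.8% identical, with a longest shared run of 10 to 14 bases, shorter than a 50-base read. No 50-base stretch of the 5 tissue-specific transcripts or of *Cox4i1* occurred elsewhere in the genome, whereas 21.0% of those of *Cox8a*, 12.3% of *Cox6a1*, 4.40% of *Cox7a2* and 2.63% of *Cox6b1* did. Read pairs that align to several places were not counted, so these 4 ubiquitous genes may be undercounted.

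*Cox7a1* and *Cox8b* carry the main result, so the 250 bases upstream of their listed RefSeq start sites are shown beside those of their ubiquitous partners, 5′ to 3′ on the gene's strand; capitals mark matches to the motifs named after them.
Cox7a1, GRCm38.p6 chr7:30183921-30184170, plus strand: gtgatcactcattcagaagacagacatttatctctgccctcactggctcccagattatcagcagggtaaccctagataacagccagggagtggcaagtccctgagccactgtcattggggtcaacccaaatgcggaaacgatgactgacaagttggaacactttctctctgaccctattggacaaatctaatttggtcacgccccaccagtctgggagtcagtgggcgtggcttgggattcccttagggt
Cox7a2, GRCm38.p6 chr9:79759854-79760103, minus strand: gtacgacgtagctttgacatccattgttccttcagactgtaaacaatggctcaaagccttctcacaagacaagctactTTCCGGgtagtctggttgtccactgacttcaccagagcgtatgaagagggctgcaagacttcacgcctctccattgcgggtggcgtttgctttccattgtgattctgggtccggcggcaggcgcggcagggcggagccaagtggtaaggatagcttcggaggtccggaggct
Cox8b, GRCm38.p6 chr7:140900447-140900696, minus strand: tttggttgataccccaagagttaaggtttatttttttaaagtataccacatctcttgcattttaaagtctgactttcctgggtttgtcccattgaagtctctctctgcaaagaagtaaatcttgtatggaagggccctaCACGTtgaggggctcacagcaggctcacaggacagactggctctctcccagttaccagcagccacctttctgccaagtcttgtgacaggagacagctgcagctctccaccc
Cox8a, GRCm38.p6 chr19:7217617-7217866, minus strand: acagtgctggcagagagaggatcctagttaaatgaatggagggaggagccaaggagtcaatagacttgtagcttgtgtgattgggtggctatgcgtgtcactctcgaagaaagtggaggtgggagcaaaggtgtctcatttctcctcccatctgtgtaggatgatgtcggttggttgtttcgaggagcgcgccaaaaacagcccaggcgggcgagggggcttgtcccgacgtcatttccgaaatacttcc
The stretch of *Cox7a2* lies inside the span given for that gene, upstream of a listed start within it.

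In all, 5 motifs were searched on both strands in the 7 promoters of these genes that the RefSeq table held, and in all 32851 of its promoters. The ETS motif of GABPA, TTCCGG, occurred in *Cox7a2*, *Cox6a1* and *Cox6b1*, against 12.03% of all promoters, and starts 172 bases upstream in *Cox7a2*. The hypoxia response core ACGTG occurred in *Cox8b* (16.6% of all), 111 bases upstream on the opposite strand. The NRF1 motif GCGCATGC occurred in *Cox6a1* (2.26% of all). The site of the oestrogen-related receptors, AAGGTCA (4.08% of all), and the direct repeat bound by PPAR:RXR (0.0335% of all), whose repeats can overlap the former, occurred in none of the 7. A match is only a run of letters in this window.

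In wild-type mice at 30°C the ubiquitous isoforms prevailed. On the scale of CPM per kb of exon, on which genes can be compared, *Cox4i1* led with a level of 1225 ± 309 (SD, n = 3). *Cox6b1* followed at 770 ± 229, *Cox8a* at 707 ± 58.4, *Cox6a1* at 459 ± 142 and *Cox7a2* at 269 ± 66.6 CPM per kb. Among tissue-specific genes *Cox8b* was highest, at 98.5 ± 47.2 CPM per kb, then *Cox7a1* at 18.1 ± 5.96, *Cox6b2* at 6.88 ± 1.90 and *Cox4i2* at 5.40 ± 1.62. The libraries of *Cox4i1* overlapped those of *Cox6b1*, those of *Cox6b1* overlapped those of *Cox8a*, and *Cox6b2*, *Cox4i2* and *Cox6a2* overlapped in turn, while all other neighbours in this order were separate. At 8°C in wild-type mice *Cox7a1* (1305 ± 43.3 CPM per kb) was above *Cox7a2* (678 ± 67.3), without overlap of the libraries. *Cox8b* was at 1802 ± 90.1 and *Cox8a* at 1644 ± 119 CPM per kb, a gap smaller than the 21.0% of *Cox8a* stretches that are not unique, so which of them was more abundant cannot be told.

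In wild-type scWAT, cold raised all 5 ubiquitous isoforms and, among the tissue-specific ones, *Cox7a1* and *Cox8b*. *Cox7a1*, the heart and muscle isoform of subunit 7a, had levels of 4.08, 7.61 and 8.03 CPM at 30°C and of 464, 493 and 468 CPM at 8°C. Its lowest library at 8°C was far above its highest at 30°C, a rise of 72.2-fold (log2 fold change 6.17 ± 0.47 SE, adjusted p = 1.7e-05 by edgeR's quasi-likelihood test), the 16th largest fitted log2 fold change of 16540 genes tested. *Cox8b*, the isoform of subunit 8 found in heart, muscle and brown fat, had levels of 23.6, 28.2 and 55.2 CPM at 30°C and of 689, 642 and 626 CPM at 8°C. It rose 18.3-fold (log2 4.19 ± 0.54, adjusted p = 2.8e-04), the 45th largest.

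The ubiquitous isoforms rose by less and by similar amounts. *Cox7a2* was at 174, 174 and 261 CPM at 30°C and at 569, 493 and 473 CPM at 8°C, a rise of 2.52-fold (log2 1.33 ± 0.19). *Cox8a* was at 363, 371 and 422 CPM at 30°C and at 821, 931 and 936 CPM at 8°C, a rise of 2.33-fold (log2 1.22 ± 0.17). The remaining ubiquitous genes were *Cox4i1*, which encodes the subunit through which ATP inhibits the enzyme (2.53-fold), *Cox6a1* (2.95-fold) and *Cox6b1* (3.13-fold), whose products lie where the enzyme forms its dimer. Their adjusted p by edgeR was between 3.0e-04 and 6.4e-04, and no library at 8°C overlapped one at 30°C. How many of all genes separated likewise was not computed. In all, 7 of the 9 isoform genes that passed the filter on low counts were called higher (by the call rule: an adjusted p below 0.05 with a fold above 1.5 or below 0.67), against 10.3% of all genes tested. The median log2 fold change of the 9 was 1.34, and that of all genes −0.07. The *Cox4i2* level (log2 0.53 ± 0.22, adjusted p = 0.104) and the *Cox6b2* level (log2 0.46 ± 0.28, adjusted p = 0.256) did not pass, and *Cox6a2* was not tested. Without wild-type replicate 2 at 30°C, the muscle-rich library, the same 7 genes were called, with *Cox7a1* at a log2 fold change of 6.30. Without wild-type replicate 3 at 30°C, *Cox4i2* was also called.

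**Figure D1:**
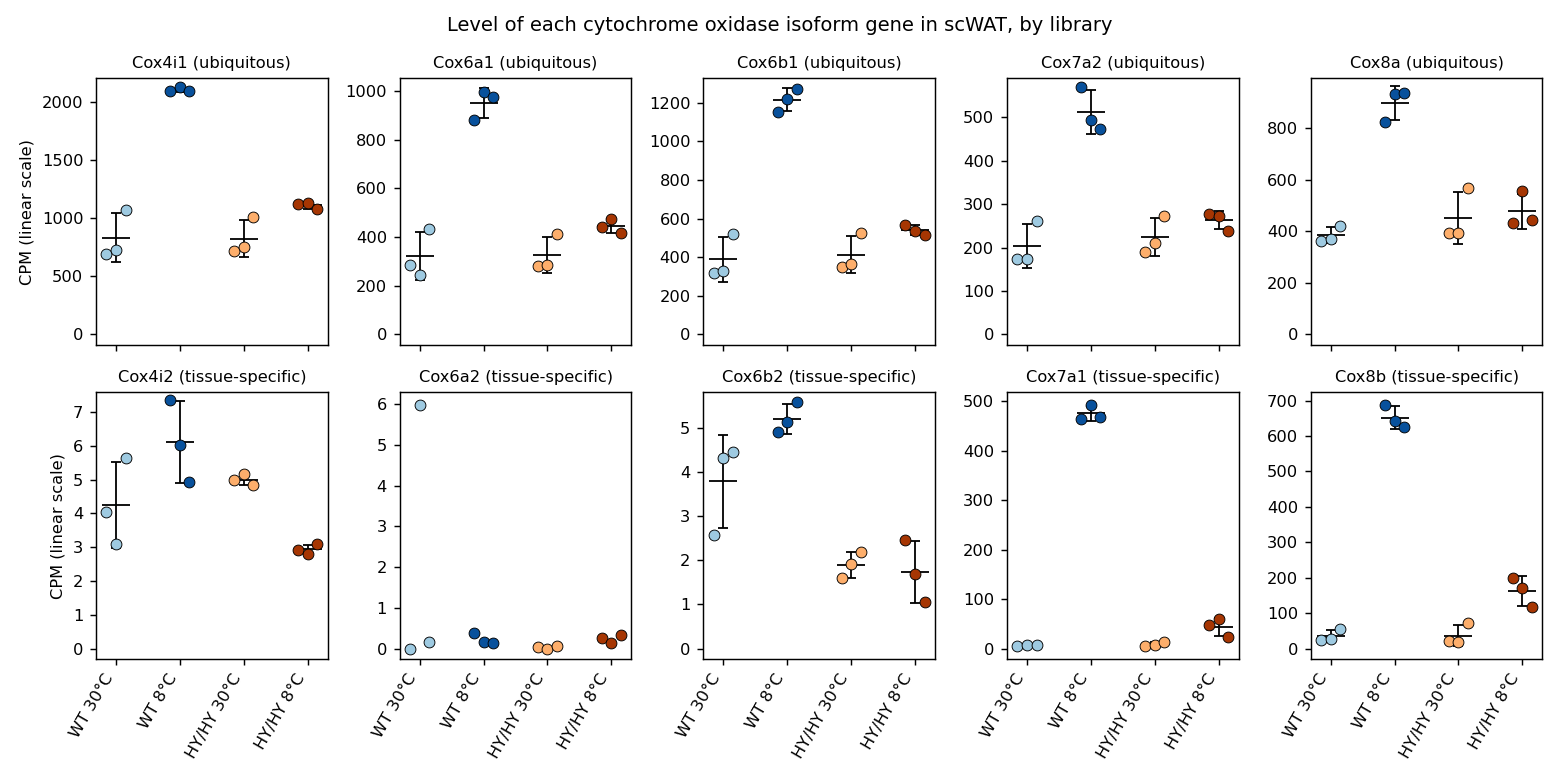
Level of the 10 isoform genes in each of the 12 libraries, in CPM on a linear axis that differs between panels. Points are libraries, bars the mean and SD of 3 (points alone for Cox6a2), the upper row the ubiquitous and the lower row the tissue-specific isoform; Cox7a1 rises from at most 8.03 to at least 464 CPM in wild-type mice and lies between 22.8 and 59.4 CPM in HY/HY mice at 8°C.

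Because the isoforms of a pair are counted in the same library, their ratio does not depend on how libraries are scaled. *Cox7a1* made up 2.29%, 4.19% and 2.98% of the counts of *Cox7a1* and *Cox7a2* together in wild-type mice at 30°C, and 44.9%, 50.02% and 49.8% at 8°C. The widest 95% exact binomial interval of a library spanned 1.72 percentage points at 8°C and covers counting error only. The log2 ratio of the pair moved from −4.98 ± 0.45 to −0.10 ± 0.17 (SD, n = 3), a difference of 4.88, with no overlap (two-sided exact permutation p = 0.1, the smallest that 3 libraries against 3 can give). Without the muscle-rich library, which had the highest share at 30°C, the difference was 5.11. *Cox8b* made up 6.10%, 7.07% and 11.6% of its pair at 30°C and 45.6%, 40.8% and 40.1% at 8°C, a difference in log2 ratio of 3.07 with no overlap (exact permutation p = 0.1). Per length of exon the shares at 8°C were 65.8% ± 2.62 for *Cox7a1* and 52.3% ± 3.06 for *Cox8b* (SD, n = 3). On this scale, which divides by 364 bases for *Cox7a1* and 754 for *Cox7a2*, the *Cox7a1* transcript was the more abundant one of its pair. By counts its share was 44.9% to 50.02%, so this order rests on the lengths used. For *Cox8b* the excess is smaller than the possible undercount of *Cox8a*.

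In Jmjd1a HY/HY mice *Cox7a1*, *Cox8b* and their pair ratios were also higher in every library at 8°C than at 30°C. *Cox7a1* was at 4.69, 6.95 and 13.3 CPM at 30°C and at 47.5, 59.4 and 22.8 CPM at 8°C. The libraries did not overlap, and the rise of 5.25-fold (log2 2.39 ± 0.41, adjusted p = 0.0375) made *Cox7a1* the only isoform gene called in this comparison, against 0.181% of all genes called higher. The log2 fold change of *Cox8b* was 2.16 ± 0.50 (adjusted p = 0.104), from 19.8, 17.7 and 72.0 CPM to 199, 172 and 116 CPM, also without overlap. With the replicate number as a block (same-numbered HY/HY libraries deviated together from their group means), *Cox8b* was called too (adjusted p = 0.0447), so that 2 genes were called. This pairing was taken from the same data, and the labels do not say what the numbers share. The call of *Cox7a1* was lost when any wild-type library at 8°C, HY/HY replicate 1 or 2 at 30°C, or HY/HY replicate 1 or 2 at 8°C was left out (adjusted p from 0.0760 to 0.160), with log2 fold changes still of 2.10 to 2.39. Without HY/HY replicate 3 at 30°C, which had the highest *Cox7a1* and *Cox8b* of its group, both genes were called.

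The remaining isoform genes of HY/HY mice gave fitted log2 fold changes between −0.77 and 0.45 in the cold. The 5 ubiquitous isoforms had values from 0.08 ± 0.17 for *Cox8a* to 0.45 ± 0.21 for *Cox6a1*, with adjusted p of 0.334 or more. *Cox4i1* and *Cox6a1* were above their 30°C range in all 3 libraries at 8°C, and *Cox6b1*, *Cox7a2* and *Cox8a* overlapped. The median of the 9 genes was 0.38, and that of all genes −0.01. At unadjusted p under 0.05 the test also passed *Cox4i1*, *Cox4i2* and *Cox8b*.

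In the HY/HY libraries *Cox7a1* took 2.40%, 3.20% and 4.65% of its pair at 30°C and 14.6%, 17.9% and 8.71% at 8°C. *Cox8b* took 4.79%, 4.32% and 11.2% at 30°C and 31.6%, 23.6% and 20.8% at 8°C. Both shares were higher in every cold library, with differences in log2 ratio of 2.16 and 2.34 (exact permutation p = 0.1 each). Over both genotypes together, with labels permuted within each genotype, the effect of temperature was 3.52 for *Cox7a1*/*Cox7a2* and 2.71 for *Cox8b*/*Cox8a* (permutation p = 0.005 each, the smallest of 400 arrangements). In all, 30 such tests were made on 5 pairs, and their p-values are not adjusted.

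**Figure D2:**
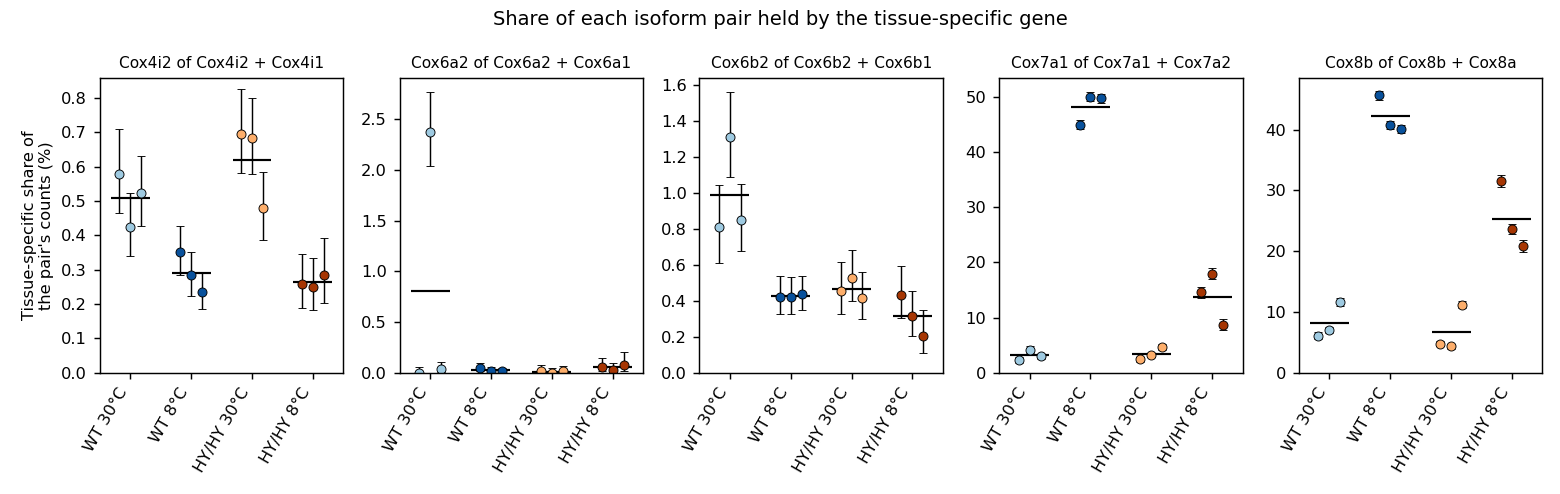
Share of each pair's counts that came from the tissue-specific gene, in percent, for each library with its 95% exact binomial interval; lines are group means, and each panel has its own axis. The shares of Cox7a1 and Cox8b are highest in wild-type mice at 8°C (44.9% to 50.02% and 40.1% to 45.6%), those of Cox4i2 are lower at 8°C than at 30°C in both genotypes, and Cox6a2 is above 0.1% in 1 library alone.

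At 8°C all 9 isoform genes tested were below their wild-type level in Jmjd1a HY/HY mice, against 4.42% of all genes called lower. *Cox7a1* was at 464, 493 and 468 CPM in wild-type and at 47.5, 59.4 and 22.8 CPM in HY/HY libraries, and its log2 fold change of −3.45 ± 0.41 (adjusted p = 0.00121) was the 27th lowest of 16540. *Cox8b* followed at −2.01 ± 0.49 (adjusted p = 0.0298), with 626 to 689 CPM in wild-type and 116 to 199 CPM in HY/HY mice. The ubiquitous isoforms were lower by similar amounts, from −0.91 ± 0.17 for *Cox8a* to −1.17 ± 0.21 for *Cox6b1*, with adjusted p from 0.00792 to 0.0152. The median log2 fold change of the 9 was −1.10, and that of all genes 0.01. No HY/HY library reached the range of the wild-type libraries for any of the 9. The share of all genes that separated in this way was not computed.

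**Figure D3:**
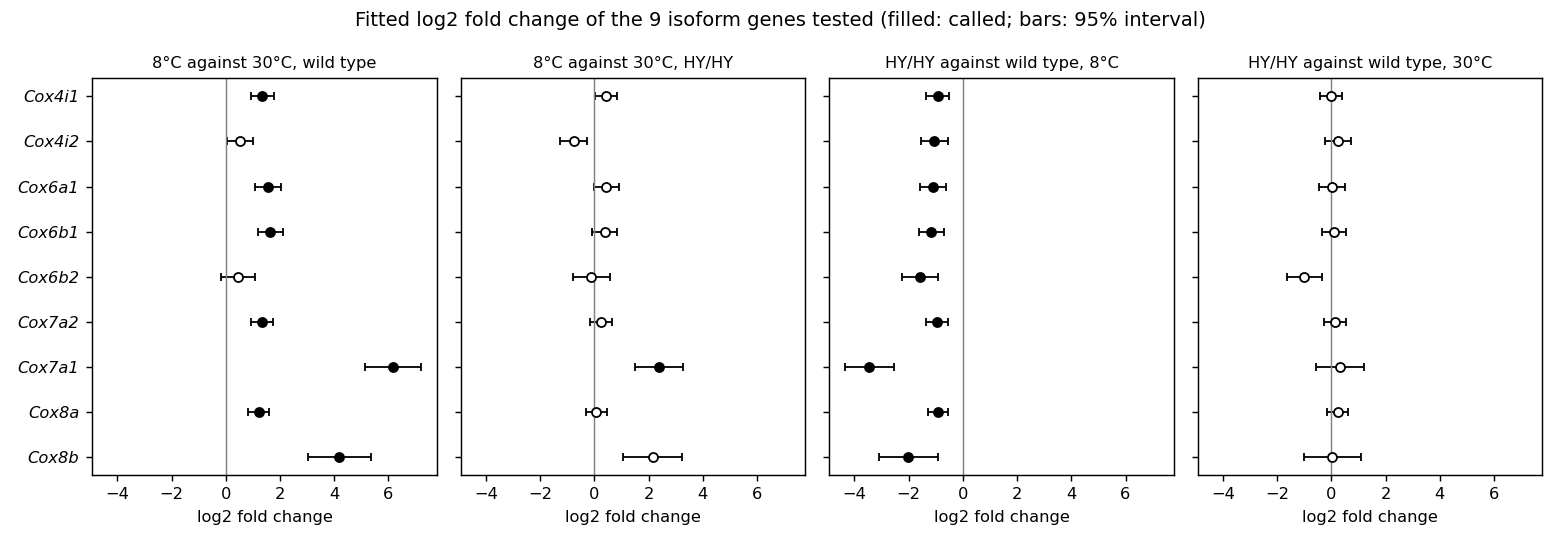
Fitted log2 fold changes of the 9 isoform genes tested, with 95% intervals, in 4 comparisons; filled points passed the call rule. Filled points number 7, 1, 9 and 0 from left to right, and Cox7a1 is farthest from 0 in the 3 comparisons that involve cold.

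This count depended on single libraries, while the direction did not. Without HY/HY replicate 3 at 8°C, which had the lowest total counts of all libraries, 2 of the 9 were called (*Cox6b1* and *Cox7a1*), with adjusted p up to 0.131. Without HY/HY replicate 1 at 8°C, 4 were called (*Cox6b1*, *Cox6b2*, *Cox7a1* and *Cox7a2*). Leaving out HY/HY replicate 2 or a wild-type library at 8°C left 6 or 7, and *Cox8b* was not among them, and nor was *Cox4i2* except without wild-type replicate 3. The log2 fold changes remained between −3.75 and −0.84 without any of these libraries.

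The pair ratios also differed between genotypes at 8°C. *Cox7a1* held 48.2% ± 2.88 of its pair in wild-type and 13.7% ± 4.67 in HY/HY mice (SD, n = 3), a difference in log2 ratio of −2.61, and *Cox8b* held 42.2% ± 3.01 and 25.3% ± 5.58, a difference of −1.12. Neither showed an overlap (exact permutation p = 0.1 each). At 30°C the shares overlapped: 3.15% ± 0.96 against 3.42% ± 1.14 for *Cox7a1* (p = 0.7, exact permutation) and 8.25% ± 2.92 against 6.78% ± 3.86 for *Cox8b* (p = 0.5, exact permutation).

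The difference between the cold responses was tested directly. For *Cox7a1* the interaction, the response of HY/HY mice less that of the wild type, was −3.78 ± 0.57 on the log2 scale (adjusted p = 0.0113), and for *Cox8a* the interaction was −1.14 ± 0.24 (adjusted p = 0.0360). These were the 2 isoform genes of 9 that passed, against 2.07% of all genes that passed with a negative sign. *Cox6b1* (−1.26 ± 0.30, adjusted p = 0.0503) and *Cox7a2* (−1.10 ± 0.26, adjusted p = 0.0537) lay at the limit, and *Cox8b* had an interaction of −2.04 ± 0.68 (adjusted p = 0.172). All 9 interactions were negative, with a median of −1.14, and that of all genes was 0.04. The *Cox7a1* interaction stayed past the limit without each library in turn (adjusted p from 0.00403 to 0.0440). That of *Cox8a* was lost without any of the 6 libraries at 8°C, or without wild-type replicate 1 or 2 at 30°C (adjusted p from 0.0510 to 0.112). Without wild-type replicate 3 at 30°C, 7 of the 9 passed, and without HY/HY replicate 1 at 30°C, 4 passed. By DESeq2 7 passed, and 5 did so with the replicate number as a block, without a filter on low counts, or with a filter of 10 counts in every library.

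The same question was asked of the isoform ratios, and no test compared the pairs with each other. The *Cox7a1*/*Cox7a2* ratio rose by 4.88 in wild-type and 2.16 in HY/HY mice on the log2 scale, a difference of −2.72 (permutation p = 0.035 over 400 arrangements within temperature). This difference was −2.51 without wild-type replicate 1 at 30°C (permutation p = 0.06) and −2.46 without HY/HY replicate 3 at 30°C (permutation p = 0.065). The *Cox8b*/*Cox8a* ratio rose by 3.07 in wild-type and 2.34 in HY/HY mice. Its difference of −0.73 was within the spread (permutation p = 0.355). For *Cox4i2*/*Cox4i1* the difference was −0.38 (permutation p = 0.185), and for *Cox6b2*/*Cox6b1* 0.59 (permutation p = 0.38). That of *Cox6a2*/*Cox6a1* was 4.06 (permutation p = 0.09), and 1.71 without the muscle-rich library. These permutations exchange genotypes within each temperature, so their p assumes no genotype difference at either temperature, not equal cold responses alone.

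The group levels of *Cox7a1* and *Cox8b* moved with the markers of thermogenic adipocytes, the cells that burn fat to make heat. The summed marker level, over 8 genes led by *Ucp1*, was 156 to 197 CPM at 30°C and 7341 to 8318 CPM at 8°C in the wild type, against 80.7 to 235 and 448 to 1500 CPM in HY/HY libraries. Of these 8 genes, 7 were called higher (10.3% of all genes) and 1 lower (6.93%) by cold in wild-type mice. By cold in HY/HY mice 2 were called higher (0.181% of all genes). At 8°C 6 were called lower in HY/HY than in wild-type mice (4.42%). The interaction passed with a negative sign for 2 of the 8 (2.07% of all genes), and the median interaction of the 8 was −2.58. Among the HY/HY libraries at 8°C, replicate 2 had the highest marker level (1500 CPM) and the highest *Cox7a1* share (17.9%), and replicate 3 the lowest of each (448 CPM and 8.71%). The *Cox8b* level and share were lowest in replicate 3 too (116 CPM and 20.8%), but highest in replicate 1 (199 CPM and 31.6%), whose marker level was 1082 CPM. In wild-type mice at 8°C the markers summed to 7341, 7662 and 8318 CPM in replicates 1 to 3. There *Cox8b* went the other way, at 689, 642 and 626 CPM, and *Cox7a1* was at 464, 493 and 468 CPM. The part of thermogenic adipocytes in the result was not tested.

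Summed over both isoforms and per length, the subunit 7a transcripts rose from 287 ± 70.2 to 1983 ± 61.1 CPM per kb in wild-type mice at 8°C (SD, n = 3), or 6.90-fold, and *Cox7a1* made up 75.9% of that difference. The subunit 8 transcripts rose from 805 ± 106 to 3446 ± 35.5 CPM per kb, or 4.28-fold, with 64.5% from *Cox8b*. For the subunits 4, 6a and 6b the sums rose 2.53-fold, 2.93-fold and 3.11-fold, and the tissue-specific gene made up at most 0.156% of the difference. In HY/HY mice the sums at 8°C were 1.30 to 1.46 times those at 30°C. These sums are descriptions of group means, with no test.

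**Figure D4:**
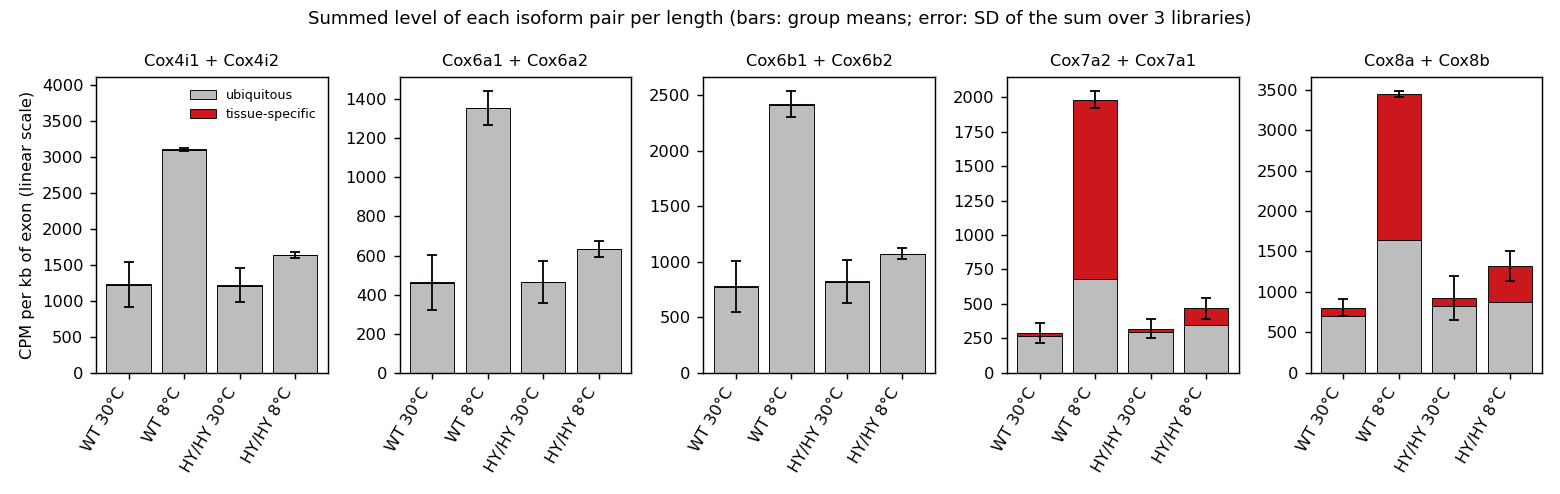
Summed level of each pair in CPM per kb of exon, on a linear axis from 0 that differs between panels; the grey part is the ubiquitous and the red part the tissue-specific isoform, as group means of 3 libraries, and the error bar is the SD of the sum. The red part is visible for subunits 7a and 8 alone; in wild-type mice at 8°C it is the larger one for subunit 7a, and for subunit 8 its small excess lies within the possible undercount of Cox8a.

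*Cox4i2*, which replaces *Cox4i1* in lung and other oxygen-sensing cells, was a rare transcript here. Its level was 4.03, 3.10 and 5.63 CPM in wild-type mice at 30°C and 7.36, 6.03 and 4.94 CPM at 8°C. The HY/HY libraries held 4.998, 5.16 and 4.83 CPM at 30°C, and 2.91, 2.81 and 3.09 CPM at 8°C. The HY/HY libraries at 8°C were thus below those of each other group, and the difference from wild-type mice at 8°C was −1.05 ± 0.23 on the log2 scale (adjusted p = 0.0193). This call was lost without any 1 of the libraries at 8°C other than wild-type replicate 3 (adjusted p from 0.0601 to 0.0749), with log2 fold changes of −1.09 to −0.90. That from HY/HY mice at 30°C was −0.77 ± 0.23 (adjusted p = 0.173), and the interaction was −1.29 ± 0.32 (adjusted p = 0.0622).

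Against its partner, *Cox4i2* moved the opposite way from *Cox7a1* and *Cox8b*. Its share of the pair was 0.508% ± 0.077 at 30°C and 0.290% ± 0.058 at 8°C in wild-type mice, and 0.619% ± 0.121 and 0.264% ± 0.019 in the HY/HY groups (SD, n = 3). The log2 ratio changed by −0.82 in wild-type and −1.202 in HY/HY mice at 8°C, without overlap in either genotype (exact permutation p = 0.1 each), and by −1.01 over both genotypes (permutation p = 0.005). The genotypes overlapped at both temperatures. Over 5 endothelial genes, the summed level was 466 to 708 CPM at 30°C and 911 to 1179 CPM at 8°C in the wild type. In the HY/HY groups it was 634 to 909 and 618 to 859 CPM. By cold in wild-type mice 3 of the 5 were called higher (10.3% of all genes). The 8 markers of pericytes and vascular smooth muscle summed to 547 to 729, 704 to 894, 918 to 1025 and 749 to 821 CPM in the same order. Of these, 1 was called higher and 1 lower by cold in wild-type mice (10.3% and 6.93% of all genes). Their part in the level of *Cox4i2* was not tested.

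*Cox6b2*, the testis isoform of subunit 6b, was counted 13 to 120 times per library. Its level was 2.58, 4.33 and 4.46 CPM in wild-type mice at 30°C and 4.90, 5.13 and 5.58 CPM at 8°C. The HY/HY libraries held 1.59, 1.93 and 2.18 CPM at 30°C, and 2.46, 1.69 and 1.06 CPM at 8°C. All 6 HY/HY libraries were below all 6 wild-type libraries. The difference passed at 8°C (log2 fold change −1.57 ± 0.30, adjusted p = 0.0113), where that of *Cox6b1* was −1.17, and at 30°C it was −0.999 ± 0.29 (adjusted p = 0.104). In wild-type libraries *Cox6b2* was 0.807%, 1.31% and 0.847% of its pair at 30°C and 0.418% to 0.437% at 8°C. In the HY/HY groups it was 0.415% to 0.523% at 30°C and 0.204% to 0.433% at 8°C. Wild-type mice at 30°C thus stood above the other groups. The change of the log2 ratio with cold was −1.18 in wild-type mice, without overlap (exact permutation p = 0.1), and −0.59 in HY/HY mice, where the libraries overlapped (exact permutation p = 0.2). Over both genotypes it was −0.89 (permutation p = 0.01). The difference of HY/HY from wild-type mice at 30°C was −1.06, without overlap (exact permutation p = 0.1). Without wild-type replicate 2 at 30°C, which had the highest share, the change with cold in wild-type mice was −0.96 and the difference at 30°C −0.84. Markers of mammary epithelium summed to 2040 to 3368 CPM at 30°C and 1336 to 1486 CPM at 8°C in the wild type. In the HY/HY groups they summed to 526 to 1407 and 828 to 1245 CPM, with *Krt18* the most abundant. Of these markers, 1 of 5 tested was called lower by cold in wild-type mice (6.93% of all genes). Their part was not tested.

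At 30°C none of the 9 genes was called between genotypes by edgeR, against 1.00% of all genes called in either direction. The fitted log2 fold changes ran from −0.999 for *Cox6b2* to 0.33 for *Cox7a1*, with a median of 0.09, and that of all genes was −0.01. At an unadjusted p under 0.05 edgeR passed 1 of the 9, *Cox6b2*, and DESeq2 called that gene (adjusted p = 0.0264). The 95% intervals of the others spanned 0, that of *Cox8b* from −1.02 to 1.08 and that of *Cox4i1* from −0.43 to 0.40.

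*Cox6a2*, the heart and muscle isoform of subunit 6a, was counted 166 times in wild-type replicate 2 at 30°C and 0 to 5 times in the other 11 libraries. It did not pass the filter on low counts and was not tested. That library had 2.38% of the pair's counts from *Cox6a2* (95% exact interval 2.03% to 2.76%), and the others 0.078% or less. The same library had a summed skeletal muscle level of 1597 CPM, and *Ckm*, muscle creatine kinase, was counted 5457 times there and 0 to 23 times elsewhere. Of 12 muscle genes 9 were tested, and 7 of them were called lower by cold in wild-type mice (6.93% of all genes). Without this library, or without any 1 of the wild-type libraries at 8°C, 0 were called. The 2 libraries without a count, wild-type replicate 1 and HY/HY replicate 2 at 30°C, allow by a floor of 3 counts a share of up to 0.0475% and 0.0362%. At 8°C, where *Cox7a1* and *Cox8b* were highest, *Cox6a2* had 5, 2 and 2 counts in wild-type and 4, 2 and 4 in HY/HY mice. The muscle-rich library had the highest *Cox7a1* share of its group (4.19%), but not the highest *Cox7a1* or *Cox8b* level.

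Of 12 other genes of the enzyme 10 were tested, since *Cox7b2* and *Cox8c* had at most 1 count in a library. By cold in wild-type mice 6 were called higher (10.3% of all genes) and none lower, with *Cox5a*, a subunit with a single isoform, highest at a log2 fold change of 2.15. By cold in HY/HY mice none was called, and at 8°C 6 were lower in HY/HY mice (4.42% of all genes), *Cox5a* most among them (−1.62). The interaction passed for *Cox5a* (−1.97), *Cox5b* (−1.55) and *Cox7b* (−1.51), against 2.07% of all genes, and at 30°C no gene was called between genotypes. *Cox7a2l*, a relative of the 7a isoforms that acts in supercomplex assembly, had a log2 fold change of 0.10 by cold in wild-type mice. The lowest value was that of *mt-Co2* (−4.49, not called), whose counts ran from 47 to 29516 within wild-type mice at 30°C, and which had the highest value, 5.33, between genotypes at 8°C. *Cox7a1* (6.17) and *Cox8b* (4.19) exceeded each of the 10 in the cold response of wild-type mice, which was not tested as a difference.

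The genes whose pattern was most like that of a tissue-specific isoform were taken by the Pearson correlation of log2 CPM over the 12 libraries among 9386 genes. For *Cox7a1* they were *2310028O11Rik*, *Pank1*, which makes coenzyme A, and *Ndufc1*, a subunit of complex I (r = 0.99 each). For *Cox8b* they were *Eci1* and *Slc25a20*, which act in mitochondrial fatty acid oxidation, and *9530008L14Rik* (r = 0.99 each). For *Cox6b2* they were *Atp6v1f* (r = 0.96), *Ubxn1* and *Zfand2b* (r = 0.95 each), and for *Cox4i2* they were *Tie1*, an endothelial receptor (r = 0.88), *Commd4* and *Cyp2d22* (r = 0.87 each). The 12 libraries share the 4 groups and 2 temperatures, so these values describe the group pattern as much as the genes.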

How the data were processed

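TruSeq libraries of scWAT RNA were sequenced as paired 50-base reads. Per the study's methods, the authors used fastp for trimming and STAR for alignment to mm10; the submitters' processing notes name FastQC, StringTie and mm10 (versions not given in the sources used here). The deposited files hold raw counts of read pairs per gene for both strands and each strand; the column with 95.5% to 96.2% of the stranded counts was used. Entries that name no gene took 55.8% to 63.5% of read pairs, multimapping ones 26.7% to 32.2%, and were left out of library sizes and tests.

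Of the identifiers, 32589 matched a symbol, and 2645 that shared one were left out of named lists. Counts were tested with the quasi-likelihood test of edgeR 4.0.16 (R 4.3.3) after filterByExpr and TMM scaling, with 1 mean per group over all 12 libraries (8 residual degrees of freedom, common biological coefficient of variation 20.7%) and Benjamini-Hochberg adjustment over 16540 genes. All adjusted p-values are from this test unless another tool is named. Calls required an adjusted p below 0.05 and a fold above 1.5 or below 0.67, and an interaction at the adjusted p alone. CPM are counts scaled by TMM to 1000000 per library; levels per kb divide by exonic length from GENCODE vM1 on NCBIM37, on which 50-base uniqueness was also computed.

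The isoform ratio was log2 of (tissue-specific count + 0.5) over (ubiquitous count + 0.5) within a library, tested by two-sided exact permutation, with labels permuted within genotype for temperature and within temperature for the interaction. Shares have 95% exact binomial (Clopper-Pearson) intervals, which cover counting error only, since the reads carry no molecular identifiers; a share of 0 is bounded by 3 counts. The fits were tested on simulated data. Replicates are the libraries that the labels number 1 to 3 in each group; where they are not separate animals, p-values measure only the spread between libraries. Same-numbered libraries of HY/HY mice at 30°C and 8°C deviated together (correlations of 0.11, 0.20 and 0.30, each over 0.1), a pairing taken from the data; in the other comparisons at least 1 number did not. Alternatives were DESeq2 1.42.0, library totals, other filters, mitochondrial genes left out of library sizes, both strands, the replicate block, the compared libraries alone, a pseudocount of 3 and each library left out.

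The genes named are the 10 isoform genes and the lists of other complex IV genes and cell type markers, plus the 3 genes of at least 10 mean CPM most like each tissue-specific isoform; *Kdm3a* was named as the targeted gene. The members and lists were chosen with earlier results of these data known. Promoters and gene positions are from RefSeq (GRCm38.p6), which held promoters of 7 members.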

Additional observations from a re-analysis of the deposited data

Results flagged for a closer look

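The cold responses of wild-type and HY/HY mice differed by the interaction test of edgeR for 2 isoform genes and by the permutation test for 1 isoform ratio. For *Cox7a1* the HY/HY response less the wild-type one was −3.78 on the log2 scale (adjusted p = 0.0113), with responses of 2.39 and 6.17, and every HY/HY and wild-type library at 8°C was above its own 30°C range. For *Cox8a* the difference was −1.14 (adjusted p = 0.0360), with responses of 0.08 and 1.22, and the HY/HY libraries at 8°C overlapped those at 30°C. For the *Cox7a1*/*Cox7a2* log2 ratio the difference was −2.72 (permutation p = 0.035), with responses of 2.16 and 4.88. That permutation p assumes no genotype difference at either temperature, not equal cold responses alone.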

How the results depend on the processing

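The log2 fold changes and interactions of single genes were recomputed under the alternatives. Of these, 800 kept their direction and side of the threshold, 29 newly passed it, 37 no longer did and 25 changed sign. The gene values include fits that leave out a library not in the comparison. For the isoform ratios these numbers were 306, 2, 2 and 10. Ratio comparisons of 3 libraries against 3 cannot give a permutation p under 0.1, so their side of the 0.05 limit was fixed beforehand. The 7 calls by cold in wild-type mice were made under every alternative, with 7 to 8 when each library was left out. By cold in HY/HY mice 2 genes were called with DESeq2, without a filter and with the replicate block, 0 with only the compared libraries, and 0 to 2 when each library was left out. Between genotypes at 8°C, 2 to 9 were called when each library was left out. At 30°C, DESeq2 called 1 (*Cox6b2*) and the fit without a filter called 1 (*Cox6a2*). *Cox6a2* had 166 counts in wild-type replicate 2 at 30°C, the muscle-rich library, and 0 to 5 in the other 11 libraries. For the interaction DESeq2 called 7, no filter 5, a minimum of 10 counts 5 and the replicate block 5, and leaving out each library gave 1 to 7. The block changed no other call of the comparisons in the text. Outside the HY/HY temperature comparison the samples share only a number, and 7 of 12 libraries correlated best with their own number.

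The values that changed sign follow, with the isoform ratios that changed their side of the threshold, and the cause was not tested. For single genes the changes of side are given above as numbers of values only. By cold in HY/HY mice, *Cox8a* was −0.027 with library totals and −0.048 to 0.28 when each library was left out, and *Cox6b2* −0.45 to 0.13. Between genotypes at 30°C, *Cox4i1* was 0.0075 without a filter, 0.0023 with both strands and 0.012 with only the compared libraries, *Cox6a1* −0.057 with library totals, and *Cox8b* −0.11 with library totals and −0.066 with the replicate block. When each library was left out, the values at 30°C were −0.18 to 0.21 for *Cox4i1*, −0.18 to 0.30 for *Cox6a1*, −0.11 to 0.36 for *Cox6b1*, −0.014 to 0.37 for *Cox7a2*, −0.16 to 0.61 for *Cox7a1* and −0.92 to 0.49 for *Cox8b*; the *Cox7a1*/*Cox7a2* ratio was −0.15 to 0.35, and *Cox4i2*/*Cox4i1* at 8°C −0.25 to 0.040. The *Cox7a1*/*Cox7a2* interaction was −2.98 to −2.38. *Cox6a2*/*Cox6a1*, which rests on 1 library, was −3.73 to 0.40 by cold in wild-type mice, 3.29 for the interaction at a pseudocount of 3 and 1.71 to 5.84 with libraries left out, and −0.58 and −0.81 to 1.26 for temperature over both genotypes.

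Library totals in place of TMM moved the all-gene median for cold in wild-type mice on the log2 scale from −0.07 to −0.41, and the number of genes called from 2854 to 5201. By cold in HY/HY mice 41 genes were called, against 316 with DESeq2, 150 without a filter, 160 with the block and 0 with only the compared libraries. At 30°C these numbers were 166, 669, 567, 519 and 0, with 42 by library totals. At 8°C 980 became 1616 with only the compared libraries. For the interaction 370 became 807 with DESeq2 and 229 with library totals. At these depths *Cox4i2* (38 to 150 counts) and *Cox6b2* (13 to 120 counts) had the lowest counts of the isoform genes tested. *Cox6a2* did not pass the filter on low counts.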

Other observations

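The tissue-specific isoforms did not keep one ratio to each other, a comparison chosen after the values were seen and given with no test. *Cox8b* counts were 5.79, 3.70 and 6.88 times those of *Cox7a1* in wild-type mice at 30°C and 1.49, 1.30 and 1.34 times at 8°C. In HY/HY mice they were 4.22, 2.54 and 5.41 times at 30°C and 4.18, 2.89 and 5.08 times at 8°C. The wild-type libraries at 8°C were thus below all other libraries in this ratio, and the HY/HY libraries at 8°C overlapped those at 30°C.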
